A study of Mus musculus with 9 samples.

Results

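Ivd and 1300002E11Rik are an enzyme gene of leucine breakdown and a long noncoding RNA gene whose transcripts stood higher in pancreatic islets of pregnant mice than in islets of virgin mice. They were found by name in a table of 10706 named loci, and they are 2 of these loci. Ivd has 1 transcript in the table and 1300002E11Rik has 7, which were summed to 1 value per library. Both were chosen because they differed between the groups, so their difference between virgin and pregnant islets is given as a description, with no test.

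Islets are the clusters of endocrine cells in the pancreas that release insulin and other hormones. The donors were female mice, either virgin (5 libraries, numbered 1 to 5) or pregnant, at the gestational day labelled GD14.5 (4 libraries, numbered 1 to 4), and their polyadenylated RNA was sequenced in bulk. The labels give no strain, genotype or age of the mice, and do not give the number of animals in a library, so spreads and p-values are those between libraries and may be technical. In bulk RNA, a change in the number of cells of a type and a change in RNA per cell cannot be told apart.

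Ivd encodes isovaleryl-CoA dehydrogenase, a flavoenzyme of the mitochondrial matrix that takes the leucine-derived isovaleryl-CoA one step further in leucine breakdown and passes electrons to the electron transfer flavoprotein. The pathway starts with the branched-chain aminotransferases and the branched-chain ketoacid dehydrogenase complex and ends in acetyl-CoA and the ketone body acetoacetate, and leucine is a known stimulus of insulin secretion. 1300002E11Rik is a long noncoding RNA gene without an assigned function. It lies beside Ehhadh, which encodes a bifunctional peroxisomal enzyme that hydrates and then oxidises the intermediates of fatty acid oxidation and is a known target of the nuclear receptor PPAR alpha.

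On GRCm38.p6, RefSeq places Ivd on chromosome 2 (118861959 to 118882909, plus strand) and 1300002E11Rik on chromosome 16 (21794347 to 21809040, plus strand), and no other RefSeq gene overlaps either. Ehhadh lies on the minus strand of chromosome 16 (21761285 to 21787834), so that it and 1300002E11Rik are arranged head to head with 6.51 kb between them. GENCODE M21, an annotation of the same genome, gives Ivd 1 coding transcript of 12 exons, 5 processed transcripts without a reading frame and 2 with a retained intron. For 1300002E11Rik it gives 8 noncoding transcripts of 3 to 6 exons and 431 to 3557 spliced bases, while RefSeq lists 2. The table has no transcript identifiers, so its 7 transcripts of 1300002E11Rik and its single transcript of Ivd could not be matched to any of these. Both RefSeq transcripts of Ivd are messenger RNAs. The table is mostly of noncoding loci: of 2377 with a mean of at least 0.5 FPKM, RefSeq classes 1768 as long noncoding RNA and 579 as protein coding. Nothing in the table tells whether the measured Ivd transcript is coding, so its level is not read as that of the enzyme's messenger RNA.

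The sequences before the 2 starts are shown because both loci were higher in the same samples and because the stretch before Ivd also holds the start of a second gene described below. Sequences are from RefSeq promoters of GRCm38.p6 and both loci had an entry. Capitals mark matches to TTCNNNGAA (the core sequence bound by STAT factors), TGACGTCA (the cyclic AMP response element) and CCAAT (the CCAAT box), searched on both strands, where ATTGG is CCAAT on the other strand. The CCAAT and TGACGTCA motifs were added after the sequences had been read. The stretch of Ivd is chr2:118861744-118861953, which ends before the first annotated start, and that of 1300002E11Rik is chr16:21794097-21794346, both on the plus strand. The first GENCODE start of 1300002E11Rik is at 21794318, so the last bases of its stretch lie inside an annotated transcript. Its marked matches lie before that start.
Ivd: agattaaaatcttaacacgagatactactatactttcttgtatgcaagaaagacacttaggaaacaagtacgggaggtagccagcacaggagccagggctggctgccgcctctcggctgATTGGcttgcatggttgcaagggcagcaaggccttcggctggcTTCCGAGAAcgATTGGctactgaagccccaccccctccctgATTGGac
1300002E11Rik: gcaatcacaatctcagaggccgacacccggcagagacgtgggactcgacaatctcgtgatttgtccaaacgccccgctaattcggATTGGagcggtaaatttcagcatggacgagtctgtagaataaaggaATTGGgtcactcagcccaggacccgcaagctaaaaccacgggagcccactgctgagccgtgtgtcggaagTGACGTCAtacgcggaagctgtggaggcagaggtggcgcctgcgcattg
In the 250 bases before the start of the RefSeq promoter's transcript, Ivd held 4 matches to CCAAT. From that start they lay at −131 to −127, −77 to −73, −47 to −43 and −23 to −19. The last of them lies past the first annotated start of Ivd, so it is inside the gene and outside the stretch printed. Of 27025 RefSeq promoters of the same length, 1 per gene, 0.918% held at least 4 and 2.98% at least 3. Ivd also held 1 match to TTCNNNGAA at −88 to −80, which overlaps no CCAAT match and which 7.18% of promoters hold at least once. The noncoding locus 1300002E11Rik held 1 match to TGACGTCA at −49 to −42, found in 1.62% of promoters, and 2 matches to CCAAT, at −165 to −161 and −119 to −115. At least 2 CCAAT matches were present in 10.5% of promoters. Neither stretch held a direct repeat of AGGTCA with 1 base between the copies, which PPAR receptors bind (0.037% of promoters), or the TATA box TATAAA (13% of promoters). A match describes letters and does not show binding.

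Values are FPKM, fragments scaled to transcript length and to the fragments of the library, so levels can be compared between loci. At Ivd the virgin libraries 1, 4 and 5 were listed at 0 FPKM, virgin 2 at 0.38 and virgin 3 at 0.67. The GD14.5 libraries 1 to 4 stood at 10.49, 17.62, 9.31 and 12.87 FPKM. The lowest GD14.5 library thus lay far above the highest virgin library, and the groups did not overlap. Groups with GD14.5 above virgin and no overlap were found at 0.421% of the 2377 loci with a mean of at least 0.5 FPKM. Without that minimum the share was 0.331% of the 10284 loci with any signal. Ivd was chosen on these values and met the minimum only through its GD14.5 libraries.

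On the log2(FPKM + 0.5) scale, Ivd differed by 4.26 ± 0.41 (SE of the limma fit over all 2377 loci, 5 against 4 libraries), the largest difference among them. No fold is given, because most virgin libraries are listed at 0 and the size then rests on the added constant. It was 5.90 with a constant of 0.1 and 3.48 with a constant of 1. Between libraries of the same number the differences were 4.46, 4.36, 3.07 and 4.74 for numbers 1 to 4, smallest where the virgin library had a signal of its own.

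At 1300002E11Rik the virgin libraries 1 to 5 stood at 3.74, 5.54, 4.64, 16.5 and 19.84 FPKM, a mean of 10.1 ± 7.53 (SD, n = 5). The GD14.5 libraries 1 to 4 stood at 13.3, 16.55, 15.3 and 50.31 FPKM, a mean of 23.9 ± 17.7 (SD, n = 4). The groups overlapped, since virgin 4 and virgin 5 lay above the lowest GD14.5 library. The groups share replicate numbers, but the labels state no pairing, and virgin 5 has no GD14.5 library of its number. By shared number, the GD14.5 libraries were 3.56, 2.99, 3.30 and 3.05 times as high as the virgin libraries for numbers 1 to 4. GD14.5 was above virgin in all 4 such pairs at 5.01% of the tested loci.

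The libraries differ in the summed FPKM of the whole table, and 1300002E11Rik moved with that sum. The sum ranged from 5415.3 to 20530.6 among virgin and from 6488.1 to 14636.3 among GD14.5 libraries, and it was largest in GD14.5 replicate 4 and in virgin 4 and 5, the libraries in which 1300002E11Rik was highest in its group. Ivd did not share this order: it was listed at 0 in virgin 4 and 5, and its highest GD14.5 library was replicate 2. Depth behind the FPKM is unknown, and whether the sums differ by library scaling or by RNA content was not tested.

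Per 10000 summed FPKM of a library, 1300002E11Rik stood at 6.91, 5.18, 6.72, 9.04 and 9.66 in virgin libraries 1 to 5 and at 20.5, 19.97, 18.9 and 34.4 in GD14.5 libraries 1 to 4. On this scale the groups did not overlap, and the mean was 7.50 ± 1.83 in 5 virgin libraries (SD) and 23.4 ± 7.32 in 4 GD14.5 libraries (SD), 3.12 times as high. Such a separation with GD14.5 above was found at 1.77% of tested loci on the same scale. For Ivd the same scale gave 0, 0.356, 0.970, 0 and 0 in virgin libraries and 16.2, 21.3, 11.5 and 8.79 at GD14.5. Here GD14.5 replicate 4 was the lowest of its group for Ivd and the highest for 1300002E11Rik.

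**Figure D1:**
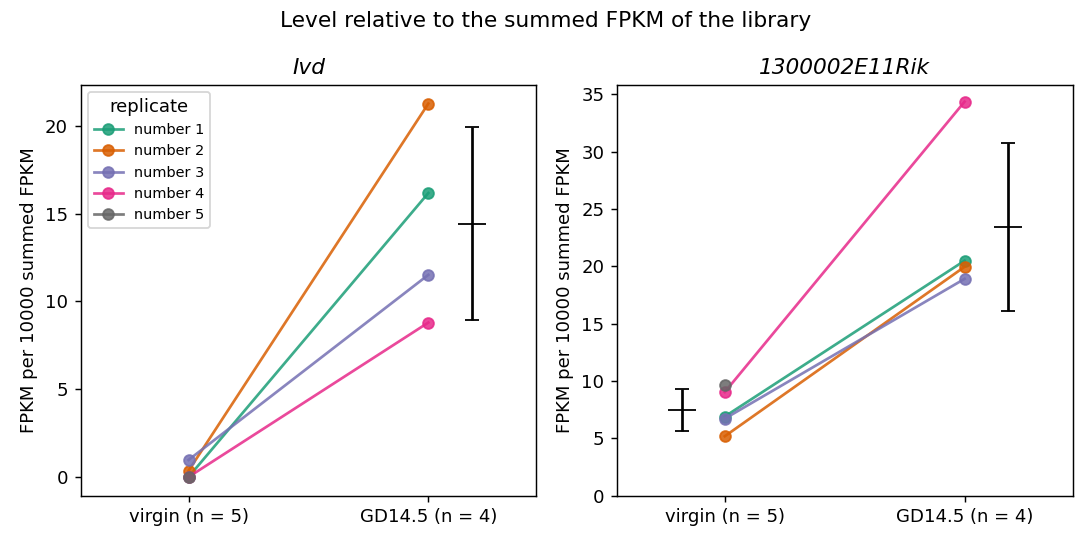
FPKM per 10000 summed FPKM of the library (vertical axis) for both loci, with lines between libraries of the same number and bars for the mean ± SD where no library is listed at 0. For 1300002E11Rik the virgin libraries lie between 5.18 and 9.66 and the GD14.5 libraries between 18.9 and 34.4, without overlap.

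Ranks within a library, which no scaling can change, put the groups in the same order at both loci. Among the 2377 tested loci, 1300002E11Rik took places 108 to 226 in virgin libraries (median 151) and 24 to 43 at GD14.5 (median 42), counted from the most abundant. Ivd took places 1473 to 2355 in virgin libraries and 39 to 140 at GD14.5 (median 64). Ivd is among the tested loci only through its GD14.5 libraries, so its low places in virgin libraries come with the choice of loci. In virgin islets 1300002E11Rik was above Ivd in all 5 libraries. At GD14.5 it was above Ivd in replicates 1, 3 and 4, and in replicate 2 Ivd stood higher, at 17.62 against 16.55 FPKM. The order of the 2 loci at GD14.5 was therefore within their spread.

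The log2 difference of 1300002E11Rik was 1.29 ± 0.60 (SE), the place 17 among all tested loci, and 1.60 ± 0.22 (SE) with the replicate number as a block. Virgin 5 has no GD14.5 library of its number, so it does not bear on the blocked difference. Leaving virgin 5 out of the fit without the block also gave 1.60. On libraries scaled to equal medians it was 1.66 ± 0.22 without the block and 1.74 ± 0.14 with it. Without GD14.5 replicate 4 it was 0.86 as deposited. With these 3 libraries of the largest sums left out (virgin 4 and 5, GD14.5 replicate 4) it was 1.61 ± 0.35 for this locus and 3.96 ± 0.38 for Ivd. Over all tested loci the median difference was −0.30 on the deposited values, −0.13 in the blocked fit and −0.03 after scaling to equal medians.

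Over the whole table, limma's adjusted p was under 0.05 for 4 loci with higher values at GD14.5 (0.168%) and 0 with lower (0%), while the unadjusted p was under 0.05 for 26 and 34. Blocking on the replicate number gave 23 higher (0.968%) and 3 lower (0.126%). Both described loci were chosen from these fits, and nothing is read from their place in them. In the order of differences, the called locus next to Ivd was Cish, a cytokine-induced inhibitor of receptor signalling, at 3.07. The uncalled locus with the largest difference was a transcript at Hsp90b1, a chaperone of the endoplasmic reticulum, at 2.32, which was listed at 0 in 5 of the 9 libraries. On the deposited values, whether 1300002E11Rik passed the threshold depended on the block. It was chosen for this difference, so that is not read as a test, and the labels state no pairing by replicate number. With the block, 1300002E11Rik at 1.60 lay between the called loci 5730420D15Rik (1.62) and Gm35853 (1.48). The uncalled locus with the largest blocked difference was Gm33272, at 2.44 ± 0.99 (SE).

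**Figure D2:**
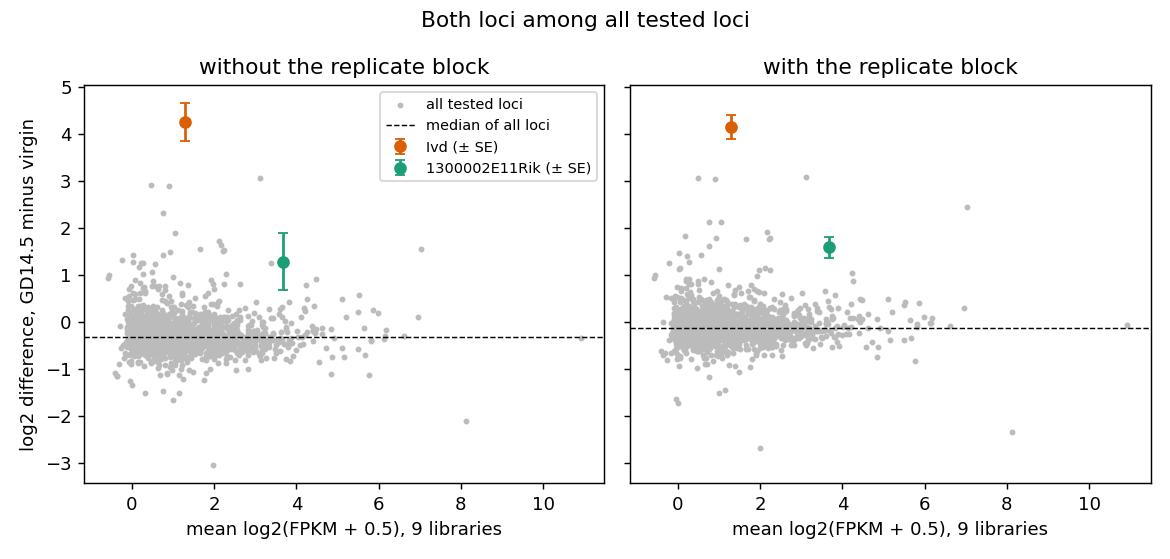
Log2 difference, GD14.5 minus virgin, against the mean log2(FPKM + 0.5) over 9 libraries, for all tested loci (grey) and the 2 described loci (colour, ± SE), without and with the replicate block. Ivd has the largest difference in both panels, at 4.26 and 4.16, and the error of 1300002E11Rik is smaller with the block, at 0.22 against 0.60.

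The 7 transcripts of 1300002E11Rik are named A to G by their mean level. Transcript A carried most of the signal. It stood at 2.24, 3.21, 2.72, 9.01 and 10.48 FPKM in virgin libraries 1 to 5 and at 9.30, 9.62, 9.66 and 31.42 in GD14.5 libraries 1 to 4. Its share of the locus was 59.9%, 57.9%, 58.6%, 54.6% and 52.8% in the virgin libraries, a mean of 56.8% ± 2.95 (SD, n = 5). At GD14.5 the share was 69.9%, 58.1%, 63.1% and 62.5%, a mean of 63.4% ± 4.87 (SD, n = 4). The 6.64 percentage points between the means came with an overlap of the groups, since GD14.5 replicate 2 lay below virgin 1 and virgin 3.

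Transcripts B and C followed each other, with B at 0.97 to 1.40 times the level of C in the 9 libraries. Each was at 0.28 to 0.74 FPKM in virgin 1 to 3, at 2.37 to 3.16 in virgin 4 and 5, at 0.96 to 1.90 in GD14.5 replicates 1 to 3 and above 5 in GD14.5 replicate 4. Their shares were highest in virgin 4 and 5, at 14.4% to 15.9%. Transcript D varied most, from 0.07 to 1.55 FPKM in virgin libraries, 22.1 times, and from 0.54 to 4.65 at GD14.5, 8.61 times. The ratio of its group means, GD14.5 over virgin, was 3.78, and the groups overlapped. Single libraries decided that ratio, which was 1.86 without GD14.5 replicate 4 and 8.28 without virgin 5. For transcript A the same ratio was 2.71, and 1.72 without GD14.5 replicate 4. Without that library transcript C turned from a ratio of 1.59 to 0.86, with its mean lower at GD14.5.

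Transcript E behaved otherwise and stayed within a narrow range, from 0.45 to 1.05 FPKM in virgin libraries and from 0.79 to 1.90 at GD14.5. The summed locus varied 5.30 times among virgin libraries while E varied 2.33 times. Its share accordingly was 5.3% and 5.8% in virgin 5 and virgin 4 and 10.1% to 16.6% in the other virgin libraries, and at GD14.5 it was lowest, at 3.8%, in replicate 4. Transcripts F and G had a mean below 0.5 FPKM, with shares of 1.1% to 7.5% for F and 0.5% to 3.8% for G.

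Each of the 7 transcripts was listed higher at GD14.5 than in the virgin library of the same number in each of the 4 pairs, where 2.10% of the 18782 transcripts of the table with any signal were. The 7 are parts of a sum chosen for being higher at GD14.5, so they are not separate observations. The margins include 0.28 against 0.30 FPKM for F in number 1, a difference of unknown precision. None of the 7 had groups without overlap, in FPKM or in share; 0.272% of the 18782 transcripts had GD14.5 FPKM above virgin without overlap. No source states how fragments were divided among overlapping transcripts, and its part in these shares was not tested.

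**Figure D3:**
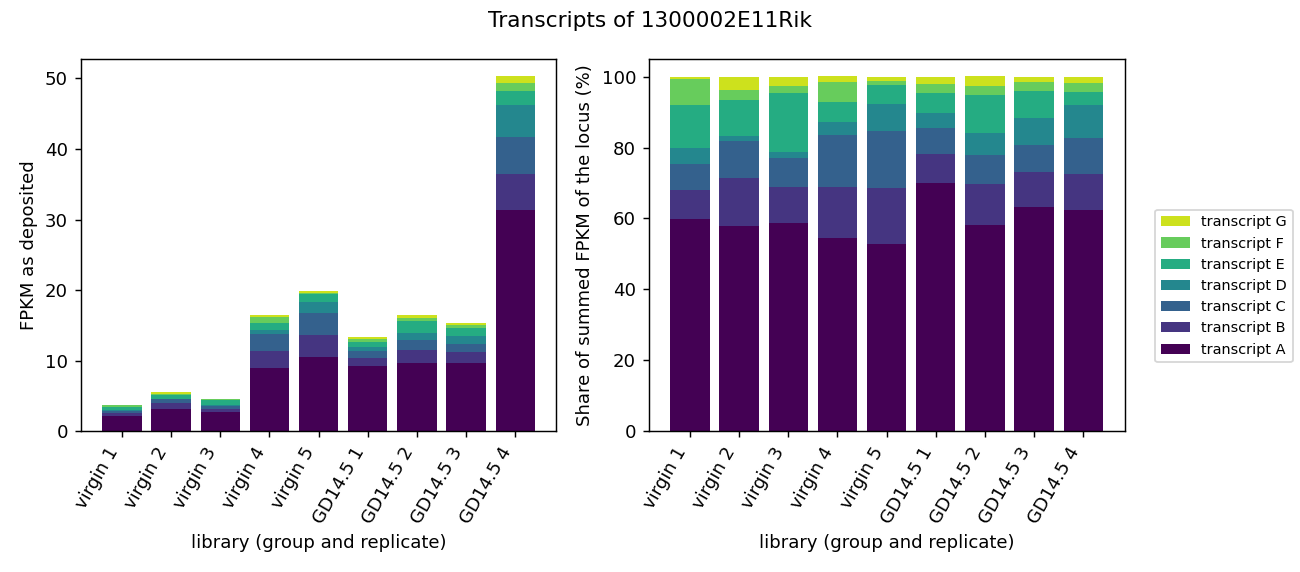
Stacked FPKM (left axis) and share of the locus in percent (right axis) of transcripts A to G of 1300002E11Rik in each of the 9 libraries. Transcript A is the largest part of every bar, between 52.8% and 69.9%, and GD14.5 replicate 4 has the tallest bar at 50.31 FPKM.

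Genes around the 2 loci were examined within 500 kb. RefSeq has 46 other genes there around Ivd, of which 9 had a line in the table, and 21 around 1300002E11Rik, of which 5 had one; Ehhadh itself is not analysed here. The minimum of 0.5 FPKM was met by 1 neighbour of each. Inafm2, 113.2 kb from Ivd, was at 6.53 ± 5.81 FPKM in 5 virgin libraries (SD) and 4.28 ± 3.96 in 4 GD14.5 libraries (SD), a log2 difference of −0.41 ± 0.61 (SE; limma adjusted p = 0.818). Senp2, which encodes a protease that removes SUMO from proteins and lies 200.4 kb from 1300002E11Rik, was at 1.09 ± 0.872 and 0.418 ± 0.199 FPKM, a difference of −0.67 ± 0.37 (SE; limma adjusted p = 0.817). With the replicate block neither passed the threshold.

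The closest neighbour of Ivd is Gm39913, a long noncoding RNA gene on the minus strand (118837390 to 118861854), whose start lies 105 bp from that of Ivd, within the stretch printed above. It fell below the minimum and is named after its values were seen. Its 3 transcripts summed to 0.01, 0.10, 0.06, 0.30 and 0.17 FPKM in virgin libraries 1 to 5 and to 0.41, 0.42, 0.46 and 1.98 in GD14.5 libraries 1 to 4. The groups did not overlap, as at 0.331% of the 10284 loci with any signal in that direction. In the fit without a minimum its log2 difference was 0.94 ± 0.30 (SE; limma adjusted p = 0.822), and with the block 0.97 ± 0.19 (SE; limma adjusted p = 0.722), so it did not pass the threshold. That fit called 0 of the 9 neighbours of Ivd and 0 of the 5 of 1300002E11Rik, where it called 0.0292% of all loci higher without the block and 0% with it. At an unadjusted p under 0.05 there was 1 of the 9, Gm39913, without the block and 2 with it, Gm39913 and Gm32957, and 0 of the 5 in either fit. Over all 10284 loci the share at that p was 2.95% without the block and 4.78% with it.

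On the other side of Ivd, Gm32798 and Gm32957, 4.84 and 12.44 kb away, had log2 differences of 0.18 ± 0.20 and 0.13 ± 0.24 (SE) in the fit without a minimum. Beside 1300002E11Rik, transcripts at Map3k13, a kinase gene 15.02 kb away, and Gm26744 inside it, 33.07 kb away, had −0.02 ± 0.24 and 0.12 ± 0.16 (SE). All these lay below 1 FPKM in every library, where the added 0.5 holds differences near 0.

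**Figure D4:**
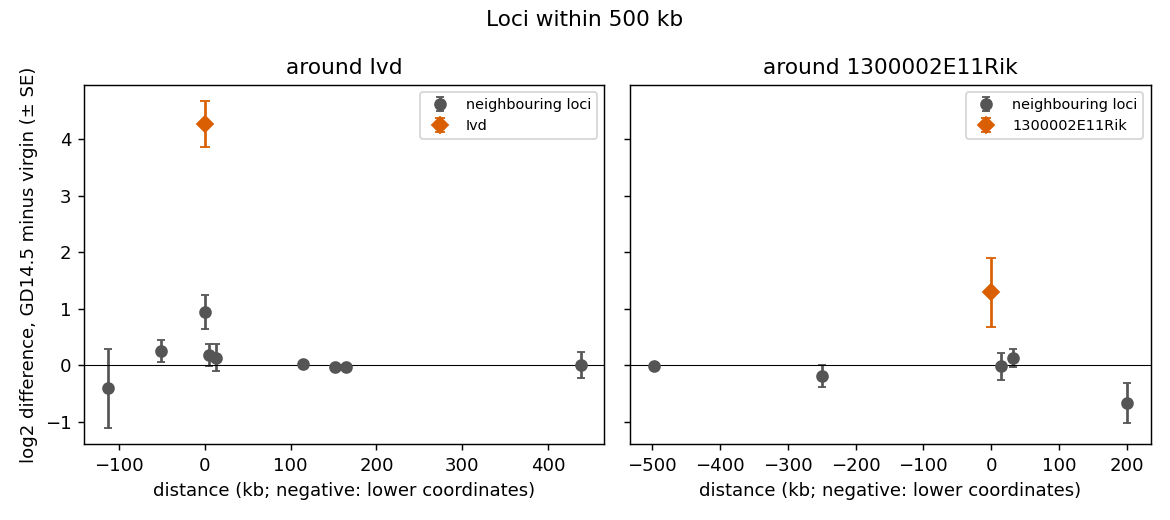
Log2 difference, GD14.5 minus virgin (± SE), of loci within 500 kb against the distance between the genes in kb, around Ivd (left) and 1300002E11Rik (right), fitted without a minimum FPKM; diamonds are the 2 described loci, with the SE of the fit of 2377 loci. Gm39913, at 0.94, is the highest of the neighbours of Ivd, and the other neighbours lie between −0.67 and 0.25.

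The rest of both pathways is mostly not analysed here. Of 111 genes of branched-chain amino acid breakdown, the acyl-CoA dehydrogenases with the electron transfer flavoprotein, mitochondrial and peroxisomal fatty acid oxidation, peroxisome assembly and PPAR regulation, 2 had a line and 1 was tested. Ppard, a nuclear receptor gene of fatty acid metabolism, was at 5.51 ± 2.25 FPKM in 5 virgin libraries (SD) and 6.45 ± 1.86 in 4 GD14.5 libraries (SD), with overlapping groups and a log2 difference of 0.26 ± 0.48 (SE; limma adjusted p = 0.831). Pcca, which encodes a subunit of propionyl-CoA carboxylase, was listed at 0 in all 9 libraries. Without transcript identifiers, neither line can be read as the messenger RNA of its gene.

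Tested loci at or within 20 kb of the list genes, a set added after the table had been seen, gave more values. Of 7 such loci at genes of branched-chain amino acid breakdown, 0 passed limma's threshold in either direction, without or with the block. Over all tested loci it called 0.168% higher and 0% lower without the block, and 0.968% and 0.126% with it. At such shares, 0 calls in lists of this size are not read as a result. The log2 differences of the 7 loci ran from −0.56 at Gm39099, near the branched-chain acyl-CoA dehydrogenase gene Acadsb, to 0.25 at Gm46488, near Pcca. Their median was −0.12, against −0.30 over all loci. Snhg1, a host gene of small nucleolar RNAs 0.12 kb from the amino acid transporter subunit gene Slc3a2, differed by −0.12 ± 0.54 (SE). At peroxisomal fatty acid oxidation genes the count was 0 of 3, with −0.52 at Gm13194 near Phyh, −0.22 at Gm40474, which overlaps Acot3 and Acot4, and −0.16 at Ptpa near Crat.

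At mitochondrial fatty acid oxidation genes 0 of 7 passed (−0.33 to −0.11), and beside the acyl-CoA dehydrogenase list 0 of 4 (−0.56 to −0.11), of which Gm39099 is shared with the first list. At peroxisome assembly genes 0 of 12 passed (−0.73 to 1.00). The highest of these, Fuca2, which encodes a fucosidase and lies 4.81 kb from Pex3, differed by 1.00 ± 0.48 (SE; limma adjusted p = 0.817). It was listed at 0 in all 5 virgin libraries and in 2 GD14.5 libraries, at 0.24 FPKM in GD14.5 replicate 3 and at 4.97 in replicate 4, without which the difference was 0.19 ± 0.23 (SE). Over these lists together, the unadjusted p of limma was under 0.05 at 1 locus without the block, beside peroxisome assembly genes, and at 1 locus each beside peroxisomal oxidation and peroxisome assembly genes with it. Over all tested loci the share at that p was 2.52% without the block and 9.30% with it.

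Likeness to the 2 loci was measured by Pearson's r of log2(FPKM + 0.5) over the 9 libraries, as a description. Libraries share a group and a summed FPKM, and 3 of them stand apart in that sum. Ivd was chosen for its group difference, so loci with a like difference rank high by this r. The loci most like Ivd were the noncoding Gm33391 (r = 0.926; Spearman's rho 0.661), Cish (r = 0.913; rho 0.644) and the noncoding Gm35853 (r = 0.868; rho 0.783), against a median r of −0.334 over 2376 loci. Without the 2 libraries farthest from the median of Ivd, r was 0.910, 0.876 and 0.896. The loci most like 1300002E11Rik were 4930594M22Rik (r = 0.994; rho 0.971), Gm34444 (r = 0.987; rho 0.933) and Gm39928 (r = 0.986; rho 0.983), against a median of 0.506. With 2 libraries left out in the same way, r was 0.984, 0.969 and 0.968. Ivd and 1300002E11Rik were at r = 0.533 and rho 0.339 with each other, and r was 0.281 and 0.238 without the 2 libraries farthest from the median of either.

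Once group means had been subtracted, the likeness to 1300002E11Rik was high for most loci, with a median r of 0.915, and highest for Gm26944 (0.999), Gm20716 (0.998) and A330008L17Rik (0.997). Those 3 loci had lower means at GD14.5 than in virgin islets, for example 13.3 ± 11.3 against 8.44 ± 7.47 FPKM at Gm20716 (SD, n = 5 and 4). For Ivd the median was −0.249, and the highest values were at Dyrk1a (0.829), Gm24105 (0.770) and 5730408K05Rik (0.750), which fell to 0.716, 0.531 and 0.455 without 2 libraries. Ivd is listed at 0 in 3 of the 5 virgin libraries, so those 3 deviations are a single value.

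The tissue label could not be checked against its markers, because the islet hormones and most marker genes are not analysed here. Of 64 markers of islet endocrine, acinar, ductal, endothelial, immune and stromal cells, 5 had a line and 1 was tested. Pcsk1 (endocrine) and Col1a1 (stromal) were listed at 0 in all 9 libraries, and Sox9 (ductal) was at most 0.01 FPKM. Without transcript identifiers, such a line cannot be read as the messenger RNA of its gene, and a listed 0 does not show a silent gene. Col3a1, a collagen gene of stromal cells, was listed at 0 in 6 libraries and stood at 16.23 FPKM in virgin 2, 8.46 in GD14.5 replicate 2 and 8.38 in GD14.5 replicate 4 (limma adjusted p = 0.817). The part of other cell types in the values of Ivd and 1300002E11Rik was not tested.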

How the data were processed

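Polyadenylated RNA of 5 virgin and 4 GD14.5 islet libraries was measured; groups and replicate numbers come from the labels. The authors deposited FPKM values, rounded to 2 decimals, with several transcripts per gene name and no transcript identifiers. Per the submitters' processing notes the genome was GRCm38.p6; the sources used here do not give the aligner, quantifier, annotation or strand setting. Of 26375 transcripts, 480 with a suffix marking a copy on another sequence were left out, and FPKM of one name were summed. Of 10706 names, 10705 matched a RefSeq symbol. A search of low FPKM for multiples of 1 read found no clear step: the strongest exceeded that of 20 jittered copies in 1 of 9 libraries, so the depth is unknown. No 2 libraries held identical values.

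Loci with a mean of at least 0.5 FPKM (2377) were fitted, as log2 of FPKM + 0.5, by limma (version 3.58.1, R 4.3.3, variance trend, two-sided, Benjamini-Hochberg adjustment, threshold 0.05). The script was tested on simulated data without deviations shared by the loci of a library. That test therefore does not cover the library differences seen here. The 2 loci, the gene lists and the tests were chosen with earlier results of these data known. Named were both loci, their transcripts, called or most abundant list genes, the nearest tested and all called neighbours, the 3 loci of highest r per locus and measure, and the loci next to them in the order of differences. Same-numbered libraries deviated together from their group means (r across loci 0.204 to 0.590 in 4 pairs). Other pairs ran from −0.545 to 0.493, the highest being virgin 5 with GD14.5 replicate 4, so the ranges overlap. The labels do not state a pairing, and these values do not show one. The blocked fit, with the replicate number as a term, is given where it changed a call. Virgin 5 has no GD14.5 library of its number and does not bear on the blocked difference. Pseudocounts, filters, scalings and left-out libraries were tried as alternatives.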

Additional observations from a re-analysis of the deposited data

Results flagged for a closer look

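Dixon's criterion was applied to 36 sets of values, each a locus, transcript or share within a group, and it set 1 library apart in 3 sets; about 1.8 are expected by chance. In each the library was GD14.5 replicate 4, the highest of its group. The 3 sets are the same locus as deposited and scaled, and its largest transcript, so they are not separate observations. At 1300002E11Rik its log2(FPKM + 0.5) was 5.67, against 3.79 to 4.09 in the other GD14.5 libraries. Per 10000 summed FPKM it was 34.37, against 18.92 to 20.5. At transcript A of the locus its log2(FPKM + 0.5) was 5.00, against 3.29 to 3.34. The same library was not apart at Ivd in either measure.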

How the results depend on the processing

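The log2 difference of Ivd stayed within 1 SD between libraries (0.51) of 4.26 in 17 of 19 alternatives; it was 5.90 with a pseudocount of 0.1 and 3.48 with 1. That of 1300002E11Rik stayed within 1 SD (0.97) of 1.29 in 19 of 19, from 0.86 to 1.74. An SD of 0.97 is large beside a difference of 1.29, so this count would have missed all but large moves. Leaving out 1 library gave 4.09 to 4.46 for Ivd, 0.86 (without GD14.5 replicate 4) to 1.60 for 1300002E11Rik, and a share of transcript A of 56.0% to 57.8% in virgin and 61.2% to 65.2% at GD14.5. From FPKM summed over the group that share was 55.0% and 62.9%. No neighbour was called in 19 of 19 alternatives.

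The count of loci called by limma, 4 higher and 0 lower, was 25 and 4 on equal library medians, 25 and 6 on equal summed FPKM, 23 and 3 with the replicate block, 23 and 2 with the block on equal medians, 0 and 0 with the block and no minimum FPKM (193 and 299 at an unadjusted p under 0.05), and 13 and 1 without the 3 libraries with the largest summed FPKM. Leaving out 1 library gave 3 to 5 higher and 0 to 1 lower, the 1 without virgin replicate 4. The cause of these moves was not tested. The replicate block changed no call of a neighbour or list locus. For 1300002E11Rik, chosen for its difference, passing the threshold depended on the block on the deposited values and is not read as a test. The block on equal medians, the block without a minimum, the fit without 3 libraries and the loci beside list genes were chosen after seeing the data. Depth is unknown, so values below 0.5 FPKM are of unknown precision.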
